A study of Homo sapiens with 15 samples.

Results

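The genes described here are 10 direct targets of the transcription factor p53, namely CDKN1A, MDM2, BBC3, BAX, AEN, TP53I3, FAS, GDF15, SESN1 and ZMAT3. They were taken as a fixed list of names and matched to the gene identifiers of the count tables, where all 10 were found among 21493 genes and all 10 had enough counts to be tested, as did 14522 genes in all. RNA was sequenced in 15 libraries of NCI-H295R, a human adrenocortical carcinoma cell line that makes steroid hormones and is known to lack functional p53. Wild-type cells were transfected with an empty pcDNA3.T7 plasmid (mock, 4 libraries) or with a constitutively active form of NFATc4, a transcription factor that calcineurin switches on (active NFATc4, 3 libraries), and RNA was taken 3 days later. Another 4 libraries are labelled NFATc4-KO (numbers 1, 2, 3 and 5) and 4 are labelled control (numbers 1 to 4, wild type), both with no treatment given in the labels. According to the study's methods, the NFATc4-KO cells were grown from single edited cells and the control cells received empty plasmids in parallel. The NFATc4-KO libraries thus come from clonal cells, and whether they stand for separate clones or for the same clone is not given. Whether the libraries of a group came from separate cultures is not given, and p values therefore measure the spread between these libraries, which may be technical.

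p53 is stabilised when DNA is damaged or cells are stressed, and it then binds response elements made of a pair of half-sites near its target genes. Its targets stop the cell cycle, repair DNA or start apoptosis, and one of them, MDM2, encodes the ligase that marks p53 for degradation. Many of these genes also answer to other factors, such as the p53 relatives p63 and p73, growth signals or the integrated stress response, so they are transcribed in cells without p53 as well.

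Some facts on the libraries bear on the values. Each library held between 18.8 and 28.2 M gene counts. NFATC4 RNA stood at 330 to 359 CPM (counts scaled to library size, with TMM factors) in active NFATc4 cells, where plasmid reads count towards the gene, and at 87.6 to 106 CPM in mock cells. Libraries labelled control and NFATc4-KO did not separate by NFATC4 RNA (44.8 to 114 and 53.6 to 92.7 CPM). Edited alleles may still be transcribed, so directions between these libraries rest on the labels alone. They fell instead into a pair of sets that cross the labels, set 1 (control 1 and 2 with NFATc4-KO 1 and 2) and set 2 (control 3 and 4 with NFATc4-KO 3 and 5), and each label was therefore compared inside the sets. NFATC4 RNA itself differed between the sets, at 85.4 to 114 CPM in set 1 and 44.8 to 57.5 CPM in set 2 (log2 difference 0.93). Of all genes, 20.0% lay above in set 1 with no overlap. In set 1 both controls (114 and 110 CPM) lay above both NFATc4-KO libraries (92.7 and 85.4 CPM), while in set 2 the labels overlapped. What separates the sets was not tested here. The 8 adrenocortical markers (NR5A1, STAR, CYP11A1, CYP17A1, HSD3B2, CYP21A2, MC2R and FDX1) summed to 1094 to 2457 CPM and were all expressed, and 4 leukocyte and 4 endothelial markers summed to at most 1.74 and 0.689 CPM in any library. The 6 fibroblast markers were COL1A1, COL1A2, COL3A1, PDGFRB, LUM and DCN. In active NFATc4 cells they summed to 45.9 to 53.2 CPM and in mock to 20.8 to 26.4 CPM. In set 1 the sum was 22.6 to 25.8 CPM and in set 2 14.2 to 19.1 CPM. Most of the gap between active NFATc4 and mock lay in COL3A1, with means of 38.2 and 12.1 CPM. COL1A1 was lower (9.41 against 10.1 CPM), and COL1A2, PDGFRB, LUM and DCN had means of at most 0.886 CPM in both. The part of these markers in the results was not tested. In bulk RNA, fewer cells of a type and less RNA per cell cannot be told apart.

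The start-site windows of CDKN1A, BBC3 and TP53I3 are shown, the targets that fell in active NFATc4 or differed by 1.5-fold between sets of libraries with no overlap, because they are the stretch in which a motif for NFAT or p53 can be looked up. All 10 targets had at least 1 window in the RefSeq table of GRCh38.p14 (18 windows, from 250 bases before to 50 bases after an annotated start). Capitals mark the NFAT core GGAAA on either strand, which 61.2% of all 35116 windows hold. The CDKN1A window (chr6:36678464-36678763, plus strand) held none, the BBC3 window (chr19:47232618-47232917, minus strand) held 2 and the TP53I3 window (chr2:24084785-24085084, minus strand) held 4, of which a pair abut.
CDKN1A: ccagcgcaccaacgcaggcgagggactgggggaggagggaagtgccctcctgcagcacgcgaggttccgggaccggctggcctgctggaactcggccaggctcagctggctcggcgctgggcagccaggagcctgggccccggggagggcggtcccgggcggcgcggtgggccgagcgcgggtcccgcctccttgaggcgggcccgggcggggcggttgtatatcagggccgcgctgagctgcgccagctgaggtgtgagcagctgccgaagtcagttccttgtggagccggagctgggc
BBC3: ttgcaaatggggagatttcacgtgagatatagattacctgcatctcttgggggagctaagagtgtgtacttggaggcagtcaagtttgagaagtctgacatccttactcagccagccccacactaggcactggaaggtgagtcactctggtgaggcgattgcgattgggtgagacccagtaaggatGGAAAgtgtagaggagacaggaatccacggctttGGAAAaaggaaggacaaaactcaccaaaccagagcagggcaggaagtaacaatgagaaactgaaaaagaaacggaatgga
TP53I3: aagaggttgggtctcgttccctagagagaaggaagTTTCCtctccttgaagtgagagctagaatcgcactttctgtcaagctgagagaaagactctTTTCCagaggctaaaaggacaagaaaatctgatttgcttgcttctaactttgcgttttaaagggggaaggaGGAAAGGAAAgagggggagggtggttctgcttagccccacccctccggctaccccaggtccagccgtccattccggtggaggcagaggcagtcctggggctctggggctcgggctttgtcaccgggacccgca

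None of these 3 windows held a p53 response element as searched here. The search was for a pair of the consensus p53 half-sites, with 0 to 13 bases between them, the C and G of each core intact and at most 3 mismatches in all, a rule that 12.8% of all windows meet. Windows of 6 of the 10 targets met it, namely MDM2, FAS, AEN, SESN1, ZMAT3 and GDF15. The share is per window and this count per target, and the 10 targets have 18 windows, so they cannot be set against each other. The matches of 4 of these targets are shown with the 4 core bases of each half-site in capitals. Those of MDM2 (chr12:68808923-68808942), FAS (chr10:88991309-88991328) and AEN (chr15:88621306-88621325) have 2 mismatches, while that of SESN1 (chr6:109009018-109009037, minus strand) has 3. The matches of MDM2, FAS and SESN1 lie before downstream starts inside these genes, and their windows at starts farther upstream held none.
MDM2: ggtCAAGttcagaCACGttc
FAS: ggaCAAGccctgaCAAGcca
AEN: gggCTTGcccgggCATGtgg
SESN1: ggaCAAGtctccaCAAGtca

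A match describes letters and no binding, and a window without one says nothing on elements elsewhere in the gene, such as the known p53 elements upstream of the CDKN1A window.

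Despite the lack of functional p53, most of the targets were well expressed. Per kb of the MANE Select transcript, CDKN1A stood highest (59.4 ± 16.7 CPM per kb, SD, n = 15), followed by BAX (57.0 ± 4.29), AEN (14.6 ± 1.75) and MDM2 (13.3 ± 0.785). FAS, SESN1, TP53I3 and ZMAT3 lay between 3.503 and 3.96 CPM per kb on average, BBC3 at 0.781 ± 0.305 and GDF15 at 0.206 ± 0.132. Neighbours in that order overlapped over the 15 libraries within each of these tiers, as CDKN1A (43.8 to 91.4) did with BAX (48.7 to 62.1), whereas the tiers of CDKN1A with BAX, of AEN with MDM2, and of the 4 genes near 4 CPM per kb did not overlap. The lowest BBC3 value (0.467) fell just under the highest GDF15 value (0.470). TP73 RNA was present at 13.1 to 18.8 CPM and TP63 had 0 to 3 counts per library.

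**Figure D1:**
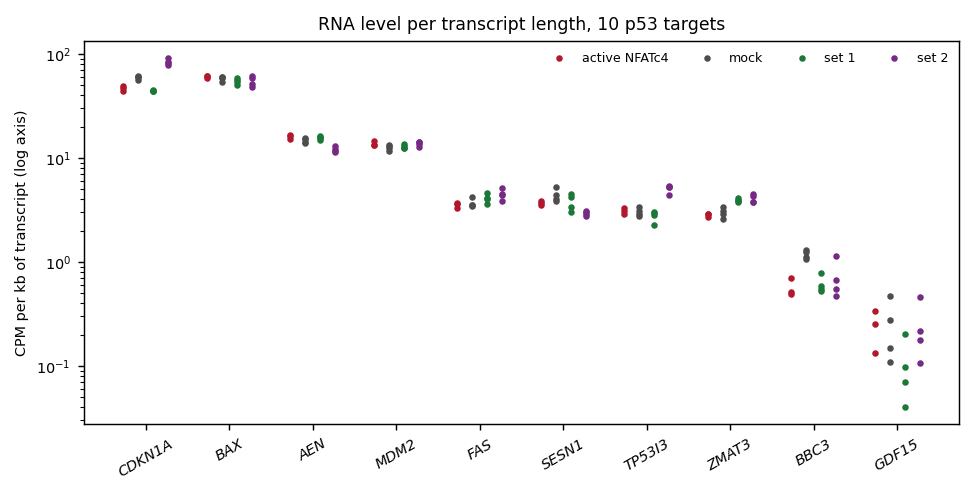
RNA of the 10 p53 targets in CPM per kb of the MANE Select transcript, on a log axis, with genes ordered by their mean. Each point is 1 library, coloured by active NFATc4, mock, set 1 or set 2. CDKN1A and BAX stand on top, and GDF15, at 1 to 13 counts per library, at the bottom.

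Active NFATc4 against mock asks whether the active factor alters these genes in transfected cells. No target rose and 2 fell, CDKN1A and BBC3 (edgeR, Benjamini-Hochberg adjusted p under 0.05 over all genes tested). Over all 14522 genes, 8.77% rose and 7.68% fell, 16.5% in all, so 2 of 10 is near the share of all genes. The median log2 fold change of the 10 was −0.02, beside 0.00 over all genes. Non-overlap told the same: 0 targets lay above and 2 below mock with no overlap, where 12.4% and 11.8% of all genes did.

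CDKN1A encodes p21, the inhibitor of cyclin-dependent kinases that stops the cell cycle. Its gene (ENSG00000124762) spans chr6:36676460-36687337 (GRCh38, plus strand). It stood at 100.2, 94.2 and 103 CPM in active NFATc4 cells and at 129, 119.8, 127 and 128 CPM in mock cells. Every active NFATc4 library was thus below every mock library. The means were 99.3 ± 4.65 (SD, n = 3) and 126 ± 4.195 CPM (SD, n = 4), and the log2 fold change came to −0.34 with a standard error of 0.056 (adjusted p = 8.05e-05, edgeR). The size hardly moved under other settings, but with the 4 labels as groups, where CDKN1A's gap between set 1 and set 2 counts as noise within a label, the adjusted p was 0.685.

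BBC3 encodes PUMA, a BH3-only protein that sets off apoptosis at the mitochondrion, and is one of the strongest apoptotic targets of p53. The gene spans chr19:47220822-47232766 (minus strand). It was a scarce transcript, with 32, 21 and 18 counts in active NFATc4 libraries and 56, 53, 42 and 57 in mock libraries. That is 1.30, 0.906 and 0.949 CPM against 2.43, 2.29, 1.98 and 2.05 CPM, again with no overlap. On the log2 scale BBC3 fell by 1.04 with a standard error of 0.23 (adjusted p = 0.00192, edgeR). BBC3 alone among the targets passed the study's cutoff of a fold change over 2 (2.06-fold), and its log2 fold change was short of it with limma-voom (−0.92) and without active replicate 2, active replicate 3 or mock replicate 1.

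The other 8 targets did not pass the test between active NFATc4 and mock, and all 8 overlapped between the groups. SESN1, which encodes sestrin 1, a brake on mTORC1 under stress, came nearest, at 21.7, 19.8 and 20.98 CPM against 25.0, 29.6, 22.6 and 21.6 CPM (log2 fold change −0.24, standard error 0.091, adjusted p = 0.0687, edgeR). It was called with no filter on low counts and without mock replicate 4 (adjusted p = 0.0267 and 0.0256). AEN, a nuclease of apoptotic cells, had 0.13 (standard error 0.062, adjusted p = 0.165), and MDM2 had 0.12 (standard error 0.060, adjusted p = 0.199). BAX, which opens the outer mitochondrial membrane, stood at 48.4 ± 1.23 against 46.2 ± 2.60 CPM, and FAS, the death receptor, at 13.04 ± 0.763 against 13.6 ± 1.35 CPM. TP53I3, a quinone oxidoreductase tied to oxidative stress, had 5.13 ± 0.352 against 5.01 ± 0.434 CPM. ZMAT3, an RNA-binding protein that controls splicing, had 25.3 ± 1.04 against 26.8 ± 3.05 CPM. GDF15, a secreted stress hormone, had 3 to 10 counts against 3 to 13, too few to show a difference of this kind (standard error 0.50).

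**Figure D2:**
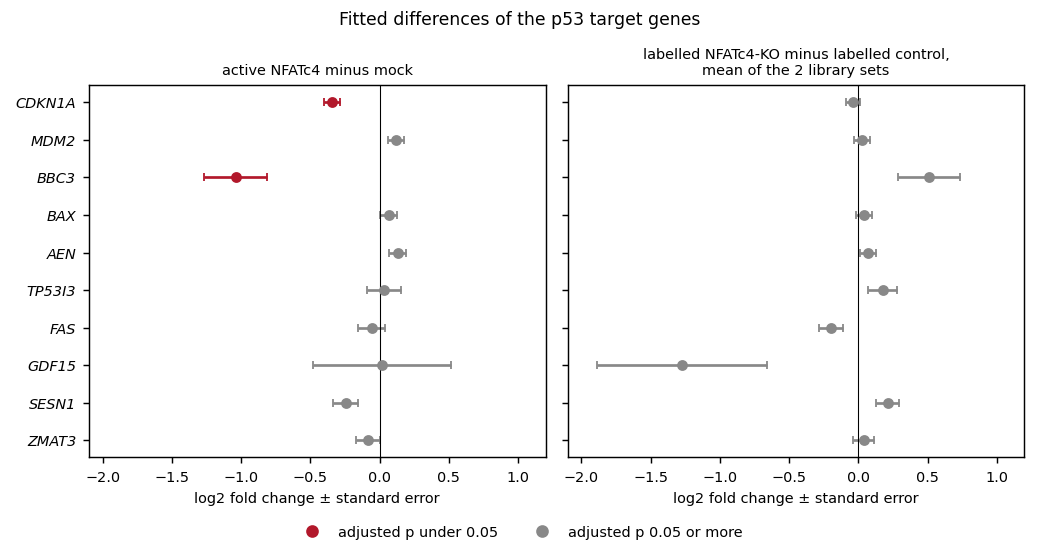
Fitted log2 fold changes with standard errors of the 10 targets for active NFATc4 minus mock (left) and for libraries labelled NFATc4-KO minus those labelled control, as the mean of the differences inside set 1 and set 2 (right). On the left, CDKN1A and BBC3 are coloured as called, and on the right no gene is.

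Other p53 targets were called about as often as all genes. Of 35 tested genes among 36 other known p53 targets, 3 rose and 2 fell in active NFATc4 against mock (median −0.03), where 8.77% and 7.68% of all genes did. CD82, a tetraspanin that restrains cell motility, rose by 0.85 in log2 units (adjusted p = 1.58e-09, edgeR), from 33.9 ± 2.19 to 61.1 ± 3.28 CPM with no overlap. PERP, a desmosome protein, rose by 0.49 and PLK2, a polo-like kinase, by 0.38. CCNG1, which encodes cyclin G1 and feeds back on MDM2, fell by 0.31 (adjusted p = 0.00232), and TP53INP1, an autophagy and apoptosis cofactor of p53, fell by 0.48 (adjusted p = 0.0291). DESeq2 called 2 higher and 1 lower of the same list. Of 15 tested p53 relatives and regulators, 0 rose and 2 fell, CDKN2A (−0.27), whose locus encodes p16 and the MDM2 inhibitor ARF, and CHEK2 (−0.26), a damage checkpoint kinase.

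A pair of further lists covers the routes that touch CDKN1A from either side. Beside the same 8.77% and 7.68% of all genes, 2 of 12 integrated stress response genes rose and 3 fell. SLC7A11 (0.32) and ASNS (0.24) rose, and DDIT4, an mTORC1 inhibitor, fell by 1.24 (adjusted p = 1.55e-05, edgeR) together with VLDLR (−0.94) and CHAC1 (−0.42). Of 20 cell cycle genes that p53 represses through p21, 1 moved, AURKB (−0.21, adjusted p = 0.0325), and the median of the list was 0.02. The summed level of those 20 genes was 4287 to 4368 CPM in active NFATc4 and 4120 to 4313 CPM in mock cells. The groups thus overlapped in the sum of these cell cycle genes while CDKN1A was lower in every active NFATc4 library.

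Libraries labelled NFATc4-KO against control ask what loss of NFATc4 does in cells that did not receive the pcDNA3.T7 plasmids. None of the 10 targets was called, as the mean of the differences inside each set, where 5.67% of all genes were higher and 6.31% lower. At an unadjusted p under 0.05, 2 targets were higher, BBC3 (0.51) and SESN1 (0.21), and 2 were lower, GDF15 (−1.27) and FAS (−0.20), beside 13.2% of all genes in each direction. DESeq2 and limma-voom called 0 of the 10 as well. CDKN1A was flat under the labels inside a set: controls 1 and 2 had 92.7 and 94.2 CPM and NFATc4-KO 1 and 2 had 93.1 and 94.5 CPM, while controls 3 and 4 had 173 and 193 CPM and NFATc4-KO 3 and 5 had 178 and 167 CPM. Its log2 difference was −0.04 (standard error 0.051, adjusted p = 0.671, edgeR), and the BBC3 fall in active NFATc4 had no called counterpart here (adjusted p = 0.147).

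By label, BAX differed in opposite directions in the sets, while SESN1 differed in set 1 and hardly in set 2. The test between the sets, given below, called neither. BAX had 45.1 and 47.3 CPM in controls 1 and 2 above 40.1 and 42.6 CPM in NFATc4-KO 1 and 2, but 38.7 and 41.4 CPM in controls 3 and 4 below 46.4 and 48.5 CPM in NFATc4-KO 3 and 5. Its difference between labels was −0.16 in set 1 and 0.25 in set 2. SESN1 had 17.3 and 19.2 CPM in controls 1 and 2 against 24.0 and 25.6 CPM in NFATc4-KO 1 and 2 (0.44), and 16.4 to 17.5 CPM in all libraries of set 2 but NFATc4-KO 5 (15.5 CPM, −0.02 for the set). The test of the label effect between sets called 0 targets, where 0.0482% of all genes were called. At an unadjusted p under 0.05 it held BAX (adjusted p = 0.174, edgeR) and SESN1 (adjusted p = 0.242), beside 15.1% of all genes. Without control replicate 4, BAX was called (−0.45, adjusted p = 0.0423).

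Of the 35 other p53 targets tested, 6 were higher in libraries labelled NFATc4-KO and 3 lower (median 0.10), beside 5.67% and 6.31% of all genes. Whether this list differed from the 10 targets was not tested. ACER2, a ceramidase, was higher by 0.65, and SESN2, a relative of SESN1 that also answers to ATF4, by 0.42 (standard error 0.077, adjusted p = 0.00079, edgeR), with every NFATc4-KO library (24.3 to 26.7 CPM) above every control library (15.9 to 21.7 CPM). TRIM22, an interferon-induced ubiquitin ligase, was lower by a log2 difference of −1.26 (adjusted p = 0.0468), on 1 to 15 counts against 8 to 18, with −0.14 in set 1 and −2.37 in set 2. PLK2 was lower too (−0.33). Both overlapped between the labels. With the 4 labels as groups, 0 of these 35 were called. Beside the same shares of all genes, 3 of 12 stress response genes were higher and 1 lower, led by ATF3 (1.07, adjusted p = 0.00012) with 3.44 to 4.93 against 1.46 to 2.34 CPM. The others were ASNS (0.29), DDIT3 (0.25) and CEBPB (−0.30). Of the p53 relatives and regulators, 0 were called by edgeR and 2 as lower by DESeq2 and by limma-voom, and of the cell cycle genes 1 was lower, RRM2 (−0.23). In the same comparison all 8 adrenocortical markers were lower by their fitted difference and 7 were called, beside 6.31% of all genes called lower. With the 4 labels as groups 0 of the 8 were called, and all 8 overlapped between the labels. Their summed level was 1094 to 1631 CPM under NFATc4-KO and 1179 to 2247 CPM under control. Their part in the differences above was not tested.

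Between the sets, the values are a description, since the sets were recognised in earlier results of these data. Set 1 and set 2 differed by 1.5-fold or more with no overlap in 0 targets above and 2 below, CDKN1A and TP53I3. All genes did so at 8.17% above and 6.98% below. CDKN1A stood at 92.7 to 94.5 CPM in the 4 libraries of set 1 and at 167 to 193 CPM in those of set 2, 1.90-fold apart (log2 difference −0.92, standard error 0.051). Its SD across both labels was 0.864 CPM over the 4 libraries of set 1 and 11.3 CPM over those of set 2. TP53I3 stood at 3.79 to 4.95 CPM in set 1 and 7.32 to 8.88 CPM in set 2 (log2 difference −0.89), on 97 to 118 and 170.0 to 208 counts. AEN went the other way, with 46.1 to 50.5 CPM above 34.8 to 40.2 CPM (0.38, under 1.5-fold). With no limit on the fold, 1 target lay above and 2 below, where 20.0% and 17.1% of all genes did. MDM2, BAX, BBC3, FAS, GDF15, SESN1 and ZMAT3 overlapped between the sets.

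**Figure D3:**
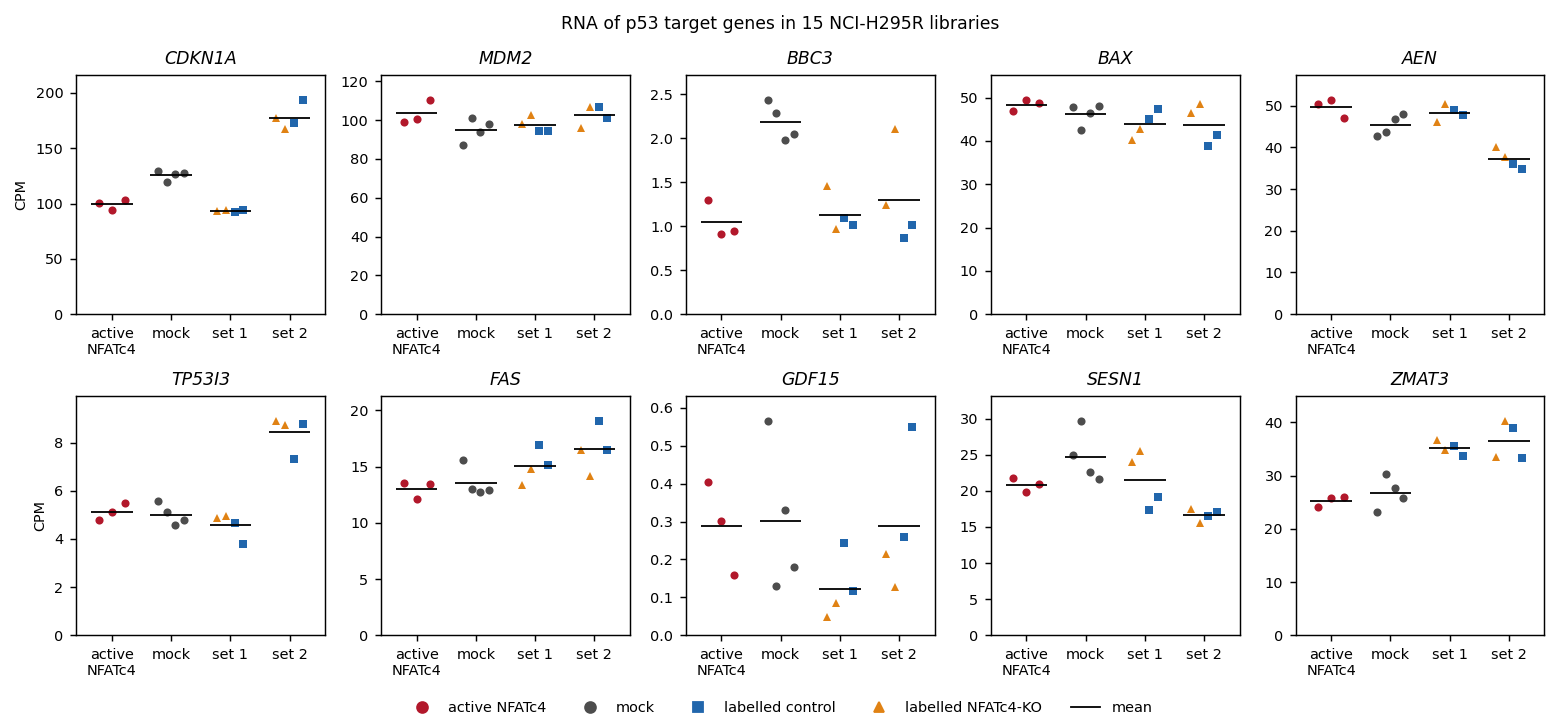
CPM of each p53 target in the 15 libraries, by active NFATc4, mock, set 1 and set 2, with squares for libraries labelled control, triangles for those labelled NFATc4-KO and a bar at the mean. CDKN1A and TP53I3 are highest in set 2 whatever the label, BBC3 has its highest mean in mock, and MDM2 stays between 87.4 and 110 CPM throughout.

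In set 2, where CDKN1A lay higher, the cell cycle genes repressed through p21 lay lower. All 20 were higher in set 1 than in set 2 by their fitted difference (median 0.31), 14 of them with no overlap, where 7384 of 14522 genes were higher and 20.0% had no overlap. Their sum was 4617 to 4780 CPM in set 1 and 3659 to 3798 CPM in set 2. AURKB differed most, with a log2 difference of 0.97. Mock cells lay between the sets in both CDKN1A and the sum (4120 to 4313 CPM). Active NFATc4 cells lay near set 1 in CDKN1A but between the sets in the sum (4287 to 4368 CPM). The sum leans on abundant genes such as MKI67, with means of 468 CPM in mock and 675 CPM in set 1. Gene by gene, mock was above set 1 in 10 of the 20 and below in 10 (median 0.01). Active NFATc4 was above set 1 in 12 and below in 8 (median 0.04). A link between CDKN1A and these genes was not tested. The summed level of the 10 targets was 356 to 372 CPM in set 1 and 437 to 448 CPM in set 2. CDKN1A alone covered that gap, with means of 93.6 CPM in set 1 and 178 CPM in set 2, while the other targets went both ways. The other p53 targets were split, with 7 of 35 above and 5 below by 1.5-fold with no overlap, beside 8.17% and 6.98% of all genes. Among genes named after their values were seen, BTG2 (0.93), DRAM1 (1.60) and PMAIP1 (0.99) were higher in set 1, and XPC (−0.86) and GADD45A (−0.83) were higher in set 2. TP53INP1 had 87 to 117 counts in each library of set 1 and 0 to 1 in each of set 2. Over the sets that is 399 counts against 1, a ratio of 386 with a 95% exact counting interval from 69 to 15300. The interval pools the libraries of a set and leaves out the spread between them. The sum of the adrenocortical markers also differed between the sets (1554 to 2247 against 1094 to 1311 CPM). By their fitted difference 7 of the 8 markers were higher in set 1, 5 with no overlap, beside the shares of all genes above. STAR covered much of the gap in the sum, with means of 616 and 258 CPM. HSD3B2 went the other way (means of 30.7 and 37.1 CPM) and overlapped. Which cells or treatment the difference stands for cannot be told apart.

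**Figure D4:**
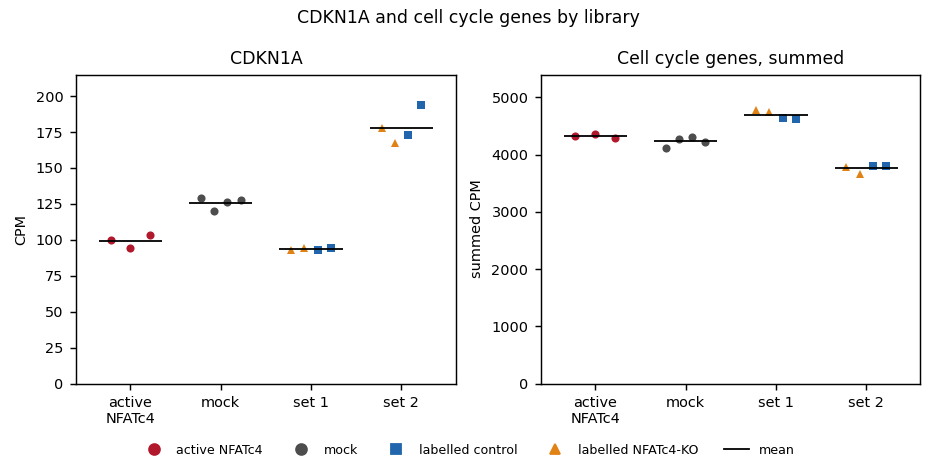
CDKN1A (left) and the sum of 20 cell cycle genes repressed through p21 (right) in CPM, with 1 point per library, bars at the means and both axes from 0. Set 2 has the most CDKN1A and the lowest sum, while active NFATc4 and mock differ in CDKN1A and lie close in the sum.

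Mock against set 1 and set 2 shows where the baseline of the active NFATc4 experiment lay. The plasmid, the time since transfection, the cloning and the culture cannot be told apart in it, since the methods have the control and NFATc4-KO cells transfected as well, and it shares the mock libraries with the comparison above. By 1.5-fold with no overlap, 1 target was above set 1 and 0 below, beside 2.47% and 4.55% of all genes. The 1 was BBC3, with 1.98 to 2.43 CPM in mock and 0.964 to 1.45 CPM in set 1 (1.94-fold, log2 difference 0.96). With no limit on the fold, CDKN1A joined it above (119.8 to 129 against 92.7 to 94.5 CPM, 0.43) and ZMAT3 lay below (23.1 to 30.4 against 33.7 to 36.7 CPM, −0.39), where 16.1% and 18.2% of all genes did. GDF15 was higher by 1.37, on 3 to 13 counts against 1 to 6, and overlapped. It no longer overlapped without control replicate 1, which made 2 targets above by 1.5-fold.

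Against set 2, mock lay above by 1.5-fold in 0 targets and below in 1, TP53I3 (−0.75), beside 9.97% and 10.6% of all genes. With no limit on the fold, SESN1 (0.57) and AEN (0.29) lay above and CDKN1A (−0.50), ZMAT3 (−0.45) and TP53I3 below, where 24.4% and 22.8% of all genes did. BBC3 was higher by 0.80 in mock but overlapped, since NFATc4-KO 5 had 2.10 CPM and the other 3 libraries of set 2 had 0.861 to 1.24 CPM. ZMAT3 was thus lower in mock cells than in either set.

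In active NFATc4 cells, CDKN1A (94.2 to 103 CPM, log2 difference 0.08) and BBC3 (0.906 to 1.30 CPM, −0.08) overlapped with set 1. Active NFATc4 differed from set 1 by 1.5-fold with no overlap in 0 targets, beside 5.23% of all genes above and 3.95% below. From set 2 it differed in 0 above and 2 below, CDKN1A (−0.84) and TP53I3 (−0.72), beside 11.1% and 8.71%. ZMAT3 was again below both sets, by 0.48 and 0.53. These comparisons share the active NFATc4 libraries, the mock libraries or the sets, so their values are not independent.

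The other p53 targets were mostly higher in mock than in set 1, 27 of 35 by their fitted difference (median 0.18), with 12 above and 0 below without overlap. Of all 14522 genes, 7318 were higher and 7203 lower by their fitted difference, and 16.1% lay above and 18.2% below without overlap. The leaders by 1.5-fold, named after their values were seen, were PHLDA3 (1.64), PMAIP1 (1.18) and CD82 (1.01), an AKT inhibitor, the BH3-only protein NOXA and the tetraspanin above. PHLDA3 rested on few counts, 9 to 23 in mock and 3 to 7 in set 1. Of the stress response genes, 10 of 12 were higher. DDIT4 (1.41), CHAC1 (1.10) and ATF3 (1.04) were so by over 1.5-fold with no overlap, as were 2.47% of all genes. The cell cycle genes were split evenly, with 10 above and 10 below 0. Of the p53 relatives and regulators, 10 of 15 were lower in mock, among them MDM4, a p53 inhibitor akin to MDM2, at 24.5 to 27.4 against 33.5 to 36.98 CPM (−0.44). MDM4 was lower in mock than in set 2 as well (−0.27), and active NFATc4 had 27.1 to 29.7 CPM.

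**Figure D5:**
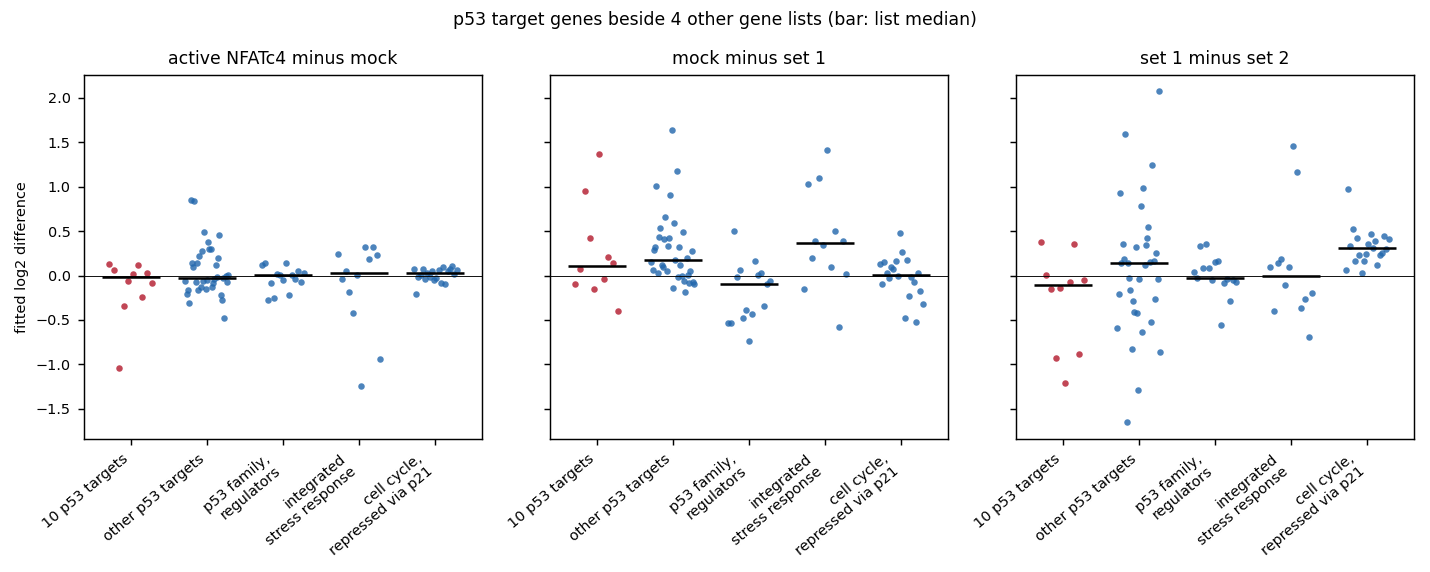
Fitted log2 differences of the tested genes of 5 lists for active NFATc4 minus mock, mock minus set 1 and set 1 minus set 2, with 1 point per gene and a bar at the list median. TP53INP1 is not drawn for set 1 minus set 2, where its counts in set 2 are 0 or 1. The 20 cell cycle genes all lie above 0 for set 1 minus set 2, while the 10 p53 targets scatter around 0 in every panel.

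The feedback gene MDM2 was the steadiest of the 10. It spans chr12:68808177-68845544 (plus strand), and its highest library exceeded its lowest 1.26-fold (coefficient of variation 5.92%). The corresponding ratios were 1.28 for BAX, 2.09 for CDKN1A, 2.35 for TP53I3, 2.82 for BBC3 and 11.6 for GDF15, the last on few counts. MDM2 had 99.2, 100.7 and 110 CPM in active NFATc4 and 87.4, 101, 93.9 and 98.0 CPM in mock libraries. In set 1 it had 94.4 to 103 CPM and in set 2 96.0 to 107 CPM, so that no pair of these groups separated. It did not follow CDKN1A, and both hold p53 elements in textbook accounts.

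Genes most like CDKN1A over the 15 libraries, by Pearson's r of log2 CPM, were MARCKSL1 (0.987), ANXA5 (0.977) and MGAT4B (0.964). Those most like MDM2 were ID4 (0.847), CIDEA (0.807) and PLCXD2 (0.799). The libraries share groups and sets, so these values describe the same few steps between groups and carry no p.

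Some counts are uncertain where exons overlap, since the strand setting of the counting is not given. FAS shares 387 exon bases with ACTA2 on the other strand and 166 with STAMBPL1 on its own, MDM2 shares 133 with the carboxypeptidase gene CPM, and TP53I3 shares 80 with FAM228B, all of which are in the count files. Genes outside the count files overlap too, namely noncoding RNAs with FAS (1899 bases), MDM2 (785), SESN1 (363) and CDKN1A (146), a pseudogene with MDM2 (439) and microRNA genes with BBC3 (80 and 76).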

How the data were processed

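Libraries were made by the authors with a stranded mRNA kit, and reads were trimmed with fastp, aligned with STAR to GRCh38.p13 and assigned to genes with featureCounts. Tool versions and the strand and multi-mapping settings are not given in the sources used here. The deposited values are raw counts per gene, 1 library to a file, with 21493 genes, of which 21400 were matched to a symbol.

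From these counts, TMM factors and CPM were computed, and 14522 genes were kept by filterByExpr and tested with edgeR's quasi-likelihood test with robust shrinkage (R 4.3.3, edgeR 4.0.16). The fit held all 15 libraries with 6 means (active NFATc4, mock, and each label in each set). Benjamini-Hochberg adjustment ran over all genes tested, with a threshold of 0.05. NFATc4-KO minus control is the mean of the differences in set 1 and set 2. Comparisons between sets, and of active NFATc4 and mock cells with them, are descriptions by 1.5-fold and no overlap. A standard error is the log2 fold change over the root of its F statistic. No authors' comparison was used.

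The 10 genes, the other lists, the sets and the tests were chosen with earlier results of these data known. Named were the 10 genes, NFATC4 and the genes around p53 (1 of which is not reported here), up to 8 called genes of each list for active NFATc4 and up to 4 for NFATc4-KO, by size, and the 3 genes most like CDKN1A and MDM2. Alternatives were DESeq2 1.42.0, limma-voom (limma 3.58.1), other groupings, libraries, normalization and filters, no robust shrinkage, a replicate block and each library left out. The fit was tested on simulated data. Same-numbered NFATc4-KO and control libraries deviated together from their label means (r = 0.80, 0.778 and 0.701) but not from the means of the fit (0.0435, 0.0435 and 0.0462), and active NFATc4 and mock did not (0.0985, −0.0908 and 0.0425), so the block was only an alternative. No 2 libraries of a group were alike within counting noise (chi-square per gene 2.2 or more). A count of 0 allows up to 0.108 to 0.158 CPM (3 counts), for counting error only. Gene positions are from GENCODE on GRCh38.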

Additional observations from a re-analysis of the deposited data

Results flagged for a closer look

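Of 30 groups of 4 libraries checked for a value far from the rest (10 genes in mock, control and NFATc4-KO), 1 stood out. Chance would mark about 1 in 20 if the libraries of a group were alike, but the control and NFATc4-KO groups hold libraries of both sets. Where a gene differs between the sets, a single value in those groups can hardly stand out. FAS stood at 15.6 CPM in mock replicate 1, where the other 3 mock libraries had 12.7 to 13.03 CPM. The gap made up 0.89 of the group's range, above Dixon's critical value for a group of this size. Without mock replicate 1, the log2 fold change of FAS in active NFATc4 was 0.02, from −0.06 with it, and neither was called.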

How the results depend on the processing

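BBC3 fell in active NFATc4 under all 24 alternatives (−1.23 to −0.92, adjusted p 0.000166 to 0.0324) and CDKN1A under 23 of them (−0.37 to −0.31 over all 24, adjusted p from 2.02e-07 to 0.685). With the 4 labels as groups, 1 target fell, and over all genes 331 rose and 205 fell in active NFATc4 (1274 and 1115 with the sets kept apart), while 32 were higher and 31 lower under NFATc4-KO (824 and 916). Under a replicate block these counts came to 795, 596, 122 and 213, the 10 targets kept their calls, and the number is not stated to mark a shared day. With 1 library left out, genes called in active NFATc4 ran from 817 to 1394 higher and from 666 to 1310 lower, fewest without active replicate 2, and under NFATc4-KO from 367 to 1031 and from 418 to 1206, fewest without NFATc4-KO replicate 5. By edgeR the label effect differed between sets in 1 gene higher and 6 lower, by DESeq2 in 13 and 51 and by limma-voom in 7 and 39. It did so in 0 to 1 targets, with BAX called without control replicate 4. Targets above set 1 in mock ran from 1 to 2, with GDF15 added without control replicate 1. With no limit on the fold, 1 target lay above in set 1 against set 2, and 2 above and 1 below in mock against set 1. The directions that turned were of values not called. For active NFATc4, GDF15 (0.02) turned with the 4 labels (−0.012), DESeq2 (−0.021), the block (−0.20) and left-out libraries (−0.31 to 0.26), FAS with limma-voom (0.0037) and left-out libraries (−0.086 to 0.017), and TP53I3 with left-out libraries (−0.016 to 0.083). For NFATc4-KO, the block turned CDKN1A (0.014), BAX (−0.024) and ZMAT3 (−0.044), and left-out libraries turned CDKN1A (−0.084 to 0.0029), MDM2 (−0.014 to 0.057) and ZMAT3 (−0.031 to 0.095). In the described comparisons, set 1 minus set 2 ranged over both signs for BBC3 (−0.33 to 0.063), BAX (−0.035 to 0.029) and ZMAT3 (−0.13 to 0.015), as did mock minus set 1 for MDM2 (−0.064 to 0.011). The cause of these turns was not tested. DESeq2's size factors moved no median of all genes by over 0.0104 on the log2 scale. GDF15 was too low to be tested with a filter of 50 counts in 3 libraries, in fits of only the groups compared and without mock replicate 1. Depth limits GDF15 (1 to 13 counts) and BBC3 (18 to 57 counts).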
